A study of Mus musculus with 7 samples.

Results

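The cytosolic heat shock chaperones are described here in mouse oocytes with a deletion in a mitofusin gene. The set was given by name: Hsp90aa1, Hsp90ab1, Hsph1, Hspb1, Hspa8, Hspa4, Hspa1b, Dnaja1, Dnajb1 and the transcription factor gene Hsf1. All 10 were found among the 26019 gene rows of the table, and all 10 passed the filter on low values. RNA was sequenced with Smart-Seq2, a full-length cDNA method for small samples, from oocytes of secondary follicles, in which a growing oocyte lies inside layers of granulosa cells. The KO group held 3 libraries and the wild-type (WT) group 4, each of 5 pooled C57BL/6J oocytes freed by collagenase for 1 h at 37°C and by Accutase for 15 min. KO is Mfn2-/- by the series title and design text but Mfn1-/- by the genotype label and by the protocol for collecting follicles. Age, the same in KO and WT, is P1 in the labels and 8 weeks in that protocol. The sources used here do not say in which cells, or by which promoter, the gene was deleted. The design text names 3 mice per group, and the labels do not tie libraries to mice, so p-values measure the spread between libraries, which may be technical.

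Molecular chaperones keep other proteins folded. HSP70 proteins bind exposed stretches of unfolded clients in a cycle driven by ATP, J-domain proteins (the DNAJ family) bring clients and start ATP hydrolysis, and HSP110 proteins exchange the nucleotide. HSP90 acts later, on kinases, steroid receptors and other clients, and small heat shock proteins hold unfolded proteins without using ATP. Heat shock factor 1, encoded by Hsf1, binds heat shock elements, which are repeats of GAA and its complement TTC in alternating orientation, and raises transcription of many chaperone genes. In mouse oocytes Hsf1 is known as a maternal factor needed for meiosis and early development, and Hsp90aa1 is one of its targets there.

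The libraries held 6851042 to 8343915 reads in genes in KO and 6676076 to 7741141 in WT. The values are normalised counts, that is, reads divided by a size factor of 0.914 to 1.10 per library. Mfn2, the gene in the series title, had 7.27, 4.55 and 7.66 normalised counts in KO libraries, against 35.3, 35.1, 15.0 and 29.2 in WT libraries. Its log2 fold change was -1.94 (SE 0.40), lower in KO with a limma adjusted p of 0.00571, while Mfn1 was not called (330.3 ± 19.9 in KO and 289 ± 36.3 in WT; SD, n = 3 and 4; adjusted p = 0.499). The deleted exons are not stated, so what this check covers is unknown. All 16 oocyte markers looked at were present. H1foo and Zp3, the highest by the mean over all 7 libraries, averaged 46831 ± 1554 and 51495 ± 27055 in KO and 55750 ± 6956 and 50126 ± 9398 in WT.

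In KO oocytes 4 of the 10 genes were higher than in WT: both cytosolic HSP90 genes, the HSP110 gene Hsph1 and the small heat shock protein gene Hspb1. Called here means a Benjamini-Hochberg adjusted p under 0.05 over all 19227 tested genes in limma on log2(value + 1). Of all tested genes, 3.09% were called higher and 3.63% lower. edgeR called the same 4 genes (3.58% of tested genes called higher), and DESeq2 called these and Hspa8 (3.75%). Limma without its trend and robust options called 0 of the 10 genes and 0.551% of tested genes. Its adjusted p was 0.158 for Hsp90aa1, 0.131 for Hsp90ab1, 0.169 for Hsph1 and 0.102 for Hspb1. None of the 10 (0) was called lower by limma, edgeR or DESeq2, while 7 had an unadjusted p under 0.05 in limma, all with the higher level in KO, beside 21.8% of tested genes in either direction. The log2 fold change was above 0 in 9 of the 10 genes, beside 49.2% of tested genes, and its median was 0.55, beside -0.01 over all tested genes. The constitutive HSP70 gene Hspa8, the J-domain genes Dnaja1 and Dnajb1, Hspa4, Hspa1b and Hsf1 itself did not pass. The libraries pool oocytes, so fewer cells of a type and less RNA per cell cannot be told apart in any of these values.

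The promoter letters of these genes are shown first, because 4 of the genes were called together and heat shock elements are known in promoters of this family. RefSeq windows on GRCm38.p6, from 250 bases before to 50 after an annotated start, matched 6 of the 10 genes: Hsph1, Hspb1, Hspa4, Hspa1b, Dnaja1 and Dnajb1. Hsp90aa1, Hsp90ab1, Hspa8 and Hsf1 had no entry. The motifs searched were the inverted pairs GAANNTTC and TTCNNGAA, which read the same on both strands. The triples GAANNTTCNNGAA and TTCNNGAANNTTC, each the reverse complement of the other, contain overlapping pairs. A pair occurred in 4 of the 6 genes with a window, and in 17.0% of all 27025 genes with one. A triple occurred in 1 of the 6, Hsph1, and in 0.662% of all genes. The stretches that hold them are printed on the strand of the gene, 5′ to 3′, with the matched letters in capitals. Positions count from the RefSeq start, with -1 the base before it. GENCODE, whose gene coordinates are printed further below, starts Dnaja1 (at 40722150) and Hsph1 (at 149636376) farther upstream. The Dnaja1 stretch thus lies inside the GENCODE gene, and so does the Hsph1 stretch from -45, but for its first few bases.
Hspb1, -129 to -78, chr5:135887790-135887841, plus strand: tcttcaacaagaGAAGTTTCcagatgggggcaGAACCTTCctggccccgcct
Hsph1, -45 to -14, chr5:149636350-149636381, minus strand: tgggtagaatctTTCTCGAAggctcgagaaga
Hsph1, 29 to 50, chr5:149636287-149636308, minus strand: gctgcagaTTCTGGAAAGTTCt
Hspa1b, -116 to -85, chr17:34959323-34959354, minus strand: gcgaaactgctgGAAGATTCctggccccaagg
Dnaja1, -136 to -105, chr4:40722332-40722363, plus strand: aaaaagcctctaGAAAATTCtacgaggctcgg
The Hspb1 window thus had 2 separate pairs, with first bases at -117 and -97, and the Hsph1 triple lay after the start. Hsph1 has 2 RefSeq starts, and the positions are from the one of these farther upstream. Dnaja1 has 3, of which 1 window held the pair. A match is a description of the letters. Hspb1 and Hsph1 were called, while Hspa1b and Dnaja1, whose windows also held a pair, were not. The windows of Hspa4 and Dnajb1, neither of them called, held no pair.

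**Figure D1:**
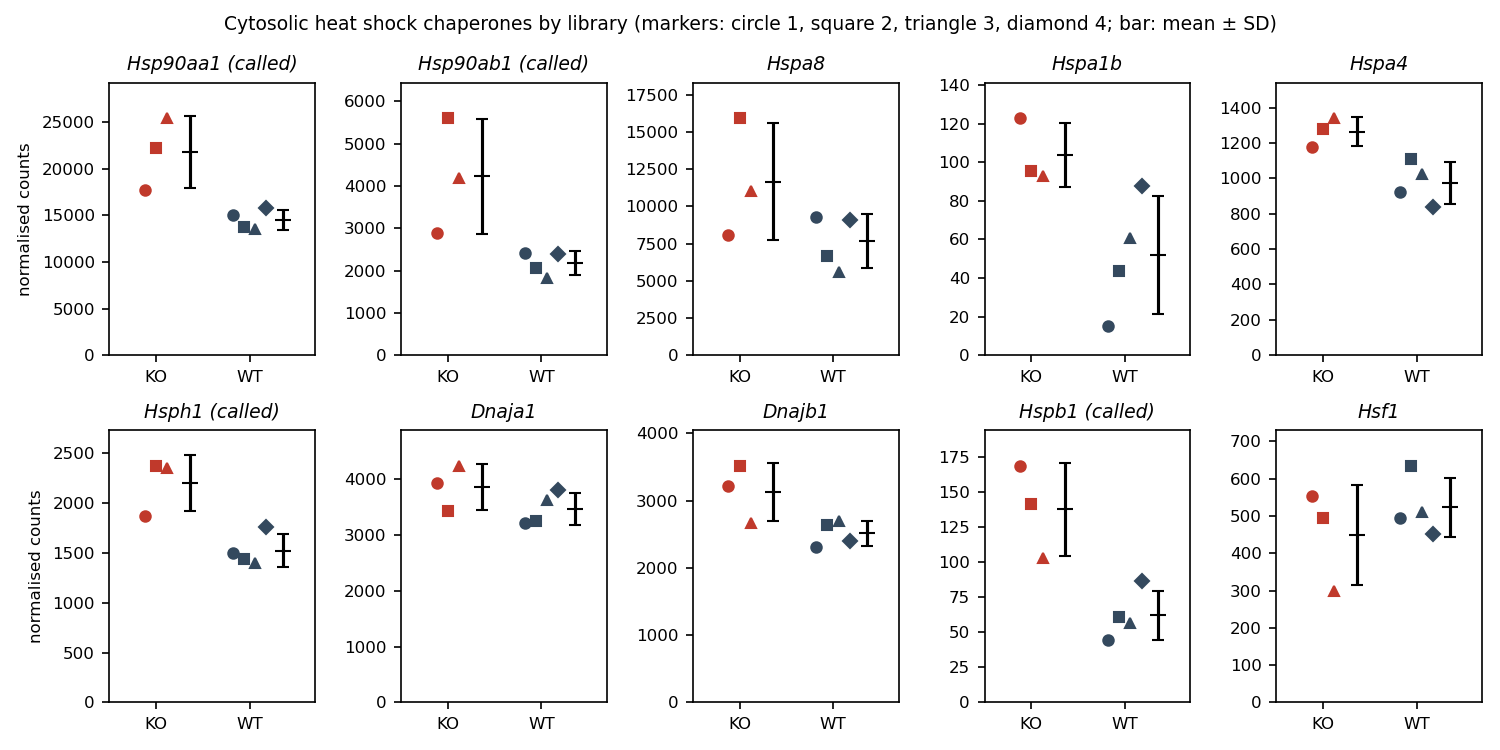
Normalised counts (vertical axis, from 0) of the 10 genes in each KO (red) and WT (dark blue) library, with marker shapes for the replicate number and the mean ± SD of 3 KO and 4 WT libraries beside the points. The KO points of Hsp90aa1, Hsp90ab1, Hsph1, Hspb1, Hspa4 and Hspa1b all lie above the WT points.

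Hsp90aa1 (ENSMUSG00000021270.13; GRCm38 chromosome 12, 110690605 to 110702728, minus strand) encodes the stress-inducible HSP90 alpha. It had 17768, 22204 and 25400 normalised counts in KO 1, KO 2 and KO 3, against 15055, 13702, 13576 and 15786 in WT 1 to WT 4. The lowest KO library lay above the highest WT library. This was a 1.49-fold higher level, with a log2 fold change of 0.57 (SE 0.12) and a limma adjusted p of 0.00719. Hsp90ab1 (ENSMUSG00000023944.14; chromosome 17, 45567775 to 45573271, minus strand) encodes HSP90 beta, the constitutive form. Its normalised counts were 2896, 5597 and 4189 in KO 1, KO 2 and KO 3, against 2417, 2052, 1834 and 2389 in WT libraries. The groups did not overlap, and KO 2 was the highest. The log2 fold change was 0.92 (SE 0.19; limma adjusted p = 0.0105), a 1.89-fold higher level. Leaving out KO 3 ended that call (adjusted p = 0.0993).

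The ratio of Hsp90aa1 to Hsp90ab1 counts was 6.13, 3.97 and 6.06 in KO libraries, against 6.23, 6.68, 7.40 and 6.61 in WT libraries. On the log2 scale it averaged 2.40 ± 0.36 in KO and 2.75 ± 0.10 in WT (SD, n = 3 and 4), with no overlap between the groups. This difference is a description without a test, and KO 2 lay farthest from the WT range. Together the HSP90 genes held 20664 to 29588 normalised counts in KO and 15410 to 18175 in WT. The 10 genes together made up 0.583% to 0.726% of all normalised counts in KO libraries and 0.445% to 0.492% in WT libraries.

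The HSP110 genes encode the nucleotide exchange partners of HSP70. Hsph1 (ENSMUSG00000029657.15; chromosome 5, 149614287 to 149636376, minus strand), also called HSP105, had 1871, 2374 and 2353 normalised counts in KO libraries, against 1495, 1440.02, 1395 and 1758 in WT libraries. The groups did not overlap, with KO 1 and WT 4 the nearest to each other. Its log2 fold change was 0.53 (SE 0.13; limma adjusted p = 0.0204). The call was lost without KO 2, KO 3, WT 1, WT 2 or WT 3, with adjusted p of up to 0.0873. Its relative Hspa4 (ENSMUSG00000020361.13; chromosome 11, 53259814 to 53300457, minus strand) had 1177, 1279 and 1339 in KO libraries, against 926, 1108, 1023 and 838 in WT libraries. Here too the groups did not overlap, but the difference did not pass (log2 fold change 0.38, SE 0.13, 95% interval 0.10 to 0.66; limma adjusted p = 0.0897). The ratio of Hsph1 to Hspa4 was 1.59 to 1.86 in KO libraries and 1.30 to 2.10 in WT libraries, so that it overlapped.

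Hspb1 (ENSMUSG00000004951.10; chromosome 5, 135887919 to 135889563, plus strand) encodes the small heat shock protein HSP25, called HSP27 in human cells. It had 169, 142 and 103 normalised counts in KO 1, KO 2 and KO 3, against 44.8, 60.7, 57.0 and 86.7 in WT libraries. Every KO library was above every WT library, and KO 1 was the highest, unlike for the HSP90 genes. The 2.21-fold higher level had a log2 fold change of 1.14 (SE 0.24) and a limma adjusted p of 0.00756. Dropping any single library kept the calls of Hspb1 and Hsp90aa1, with limma adjusted p of at most 0.0304 and 0.0365. In these 7 fits the share of tested genes called higher was 4.32% without KO 1, 1.21% without KO 2, 1.57% without KO 3, 1.76% without WT 1, 1.67% without WT 2, 1.47% without WT 3 and 2.29% without WT 4.

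**Figure D2:**
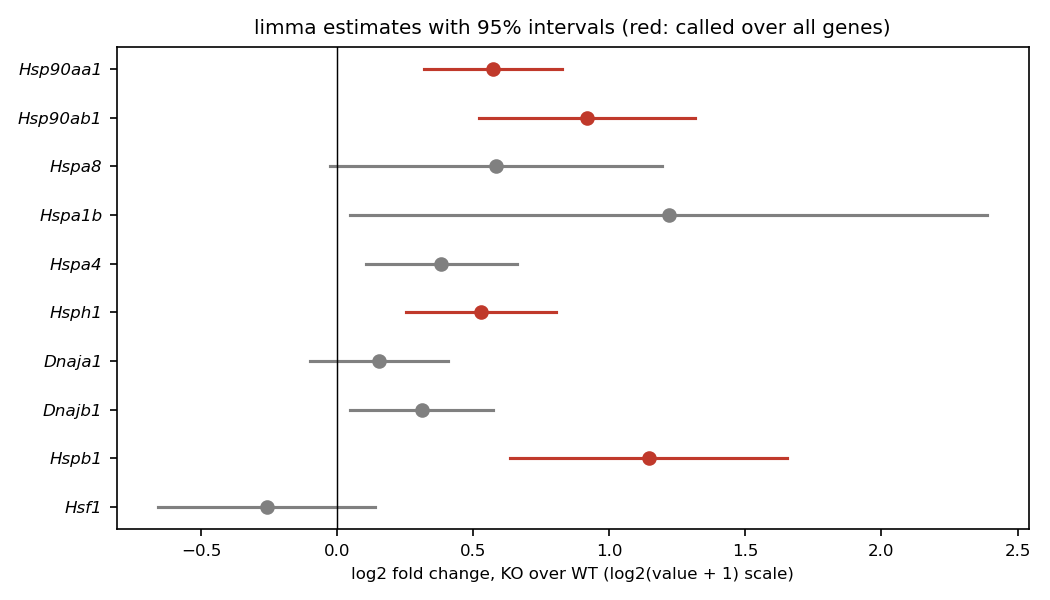
Log2 fold change of KO over WT (horizontal axis) of each gene with its 95% interval from limma, called genes in red and the others in grey. The intervals of Hspa8, Dnaja1 and Hsf1 include 0, and Hspa1b has the widest interval, from 0.05 to 2.39.

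The HSP70 genes did not pass. Hspa8 (ENSMUSG00000015656.17; chromosome 9, 40800984 to 40810087, plus strand), the constitutive HSC70, had 8091, 15913 and 11016 normalised counts in KO 1, KO 2 and KO 3, against 9280 (WT 1), 6691 (WT 2), 5616 (WT 3) and 9065 (WT 4) in WT libraries. KO 1 lay within the WT range and KO 2 far above it, so the groups overlapped (log2 fold change 0.58, SE 0.26, 95% interval -0.03 to 1.19; limma adjusted p = 0.249). DESeq2 called it higher (adjusted p = 0.0482), as did limma without KO 1 (0.82, adjusted p = 0.0432). Without KO 2 the log2 fold change was 0.33 (adjusted p = 0.422). Hspa1b (ENSMUSG00000090877.3; chromosome 17, 34956436 to 34959238, minus strand) is a stress-inducible HSP70 gene. It had 123, 95.5 and 93.0 in KO libraries, against 15.3, 43.7, 60.8 and 87.7 in WT libraries. No KO library fell within the WT range, which was wide. The log2 fold change of 1.22 had an SE of 0.51 and did not pass (limma adjusted p = 0.211). It was 1.55 and called without WT 4 (adjusted p = 0.0498), and 0.73 without WT 1 (adjusted p = 0.129). Hspa1b remained a small fraction of Hspa8, at 0.0060 to 0.0152 times its count in KO libraries and 0.0016 to 0.0108 times in WT libraries.

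The J-domain partners of HSP70 did not pass either. Dnajb1 (ENSMUSG00000005483.10; chromosome 8, 83608193 to 83612653, plus strand), or HSP40, had 3210.5, 3517 and 2662 normalised counts in KO libraries, against 2309, 2640.4, 2701 and 2397 in WT libraries. KO 3 fell inside the WT range, and the other KO libraries were above it. The difference did not pass (log2 fold change 0.31, SE 0.13, 95% interval 0.05 to 0.57; limma adjusted p = 0.149), but was called without KO 3 (adjusted p = 0.0477). Dnaja1 (ENSMUSG00000028410.13; chromosome 4, 40722150 to 40737149, plus strand), a farnesylated J-domain protein, had 3933, 3426 and 4239 in KO libraries, against 3207, 3255, 3622 and 3799.6 in WT libraries. These ranges overlapped (log2 fold change 0.15, SE 0.12, 95% interval -0.10 to 0.41; limma adjusted p = 0.50). The ratio of Dnajb1 to Dnaja1 was 0.816, 1.03 and 0.628 in KO libraries and 0.631 to 0.811 in WT libraries.

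The transcription factor gene Hsf1 (ENSMUSG00000022556.11; chromosome 15, 76477422 to 76501913, plus strand) had 553, 495 and 298 normalised counts in KO libraries, against 496, 635, 511 and 452 in WT libraries. It was the only one of the 10 genes with a lower mean in KO, and KO 3 was the lowest library (log2 fold change -0.26, SE 0.19, 95% interval -0.66 to 0.14; limma adjusted p = 0.465). Without KO 3 the log2 fold change was 0.012. The counts give RNA levels and say nothing of the activity of the protein.

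In 6 of the 10 genes every KO library was above every WT library, a pattern seen in 9.37% of tested genes. In 0 of the 10 was every KO library below every WT library, beside 9.83% of tested genes. KO 1 exceeded every WT library in 8 of the 10 genes, beside 23.4% of tested genes. The count was also 8 in KO 2, beside 28.2%, and 8 in KO 3, beside 30.0%. The exceptions were Hspa8 and Hsf1 in KO 1, Dnaja1 and Hsf1 in KO 2, and Dnajb1 and Hsf1 in KO 3.

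KO 2 and KO 3 had a higher sum of granulosa cell markers than the other libraries. Of 18 granulosa markers, 17 were in the table, and their summed level was 691, 1156 and 1001 normalised counts in KO 1, KO 2 and KO 3, against 617 to 750 in WT libraries. Cdh2 and Nr5a2, the highest of them by the mean over all 7 libraries, averaged 212 ± 53.1 and 194 ± 19.2 in KO, and 213 ± 44.4 and 182 ± 13.9 in WT. Inha and Amh are named after their values were seen. Inha had 54.5, 395 and 338 in KO libraries, against 66.7, 18.1, 23.4 and 11.9 in WT libraries. Amh, of growing follicles' granulosa cells, had 0.908, 8.18 and 7.66 in KO libraries, and was at 0 in WT 2, WT 3 and WT 4 and at 0.953 in WT 1. Inhbb was at 0 in every WT library, so it passed the filter through its KO libraries alone. Among the 14 tested granulosa markers, Inhbb included, 0 were called higher by limma or edgeR and 1, Inha, by DESeq2. In limma 10 had an unadjusted p under 0.05, Inhbb among them, beside 21.8% of all tested genes. The median log2 fold change of the 14 was 1.54. Without KO 1, limma called 5 higher (Amhr2, Gja1, Hsd17b1, Inha and Wt1). Without WT 1 it called 2 (Gatm and Hsd17b1), without WT 3 it called Gja1, and with no filter on low values it called 3 (Amh, Gja1 and Hsd17b1). Cyp19a1 was called lower.

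Oocyte markers also differed between libraries. Of the 16, limma called 0, with Figla at an adjusted p of 0.0514. By edgeR 1 was called (Figla) and by DESeq2 3 (Figla, Nlrp5 and Zp2), all higher. These tools called 3.58% and 3.75% of all tested genes higher. Limma called 1 to 3 higher with no filter on low values, a mean of at least 10, other scaling or a replicate block. Without KO 1 it called 5 higher (Figla, Nlrp5, Npm2, Ooep and Zp2), beside 4.32% of tested genes, and in its other alternatives 0. At an unadjusted p under 0.05, limma had 5 higher, the same 5 genes, and 2 lower, H1foo and Zar1. The share over all tested genes was 21.8% in either direction. Nlrp5, of the oocyte's subcortical complex, was named after its values were seen. It had 16810, 33914 and 29642 normalised counts in KO libraries, against 14025, 12759, 9108 and 15964 in WT libraries. Its log2 fold change was 1.01 (SE 0.29) with a limma adjusted p of 0.0976. Here the groups did not overlap, and KO 1 was the nearest to WT. The median log2 fold change of the list was 0.12. The part of these oocyte transcripts in the chaperone levels was not tested.

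In KO 1 the granulosa marker sum lay inside the WT range, but the mean log2 level of these markers (3.89) was above every WT library (highest 3.75). In that library Hsp90aa1, Hsp90ab1, Hsph1, Hspb1, Hspa4, Hspa1b, Dnaja1 and Dnajb1 were above every WT library, as were 23.4% of tested genes. With KO 2 and KO 3 both left out, limma called 0 of the 10 genes and 0.543% of all tested genes. That fit rests on 1 KO library, assumed to vary like the WT libraries. Its log2 fold changes were 0.29 for Hsp90aa1, 0.42 for Hsp90ab1, 0.30 for Hsph1 and 1.46 for Hspb1 (adjusted p = 0.466, 0.350, 0.539 and 0.0505). The mean log2 level of the granulosa markers ran from 3.89 to 4.75 in KO and from 2.64 to 3.75 in WT, so it did not overlap between the groups. With that mean as a covariate 0 of the 10 genes and 0.00520% of all tested genes were called by limma. Because the groups did not overlap in that mean, the fit cannot tell genotype and granulosa RNA apart. In that fit the log2 fold changes were 0.30 for Hsp90aa1, 0.38 for Hsp90ab1, 0.35 for Hsph1 and 1.72 for Hspb1 (adjusted p = 0.887, 0.888, 0.881 and 0.324).

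The theca and stroma markers in the table (5 of 9) summed to 10.9 to 21.8 normalised counts in KO libraries and 9.35 to 21.3 in WT libraries, with Star the highest at 11.1 ± 5.68 in KO and 8.57 ± 0.81 in WT. The leukocyte marker Cd68 had 18.4 ± 8.71 in KO and 12.4 ± 1.58 in WT. Pecam1, an endothelial marker, had 154 ± 28.0 in KO and 164 ± 24.3 in WT. Of the 8 blood and endothelium markers listed, 3 were in the table, and Cdh5 was among those absent. Enzyme digestion at 37°C is known to induce immediate early genes and chaperones in many cells, so immediate early genes were counted too. Of 17 tested, Ier2 and Myc were called higher and 0 lower by limma, beside 3.09% and 3.63% of all tested genes. Ier2 had 105, 113 and 87.5 in KO libraries, against 46.7, 72.4, 34.6 and 44.4 in WT libraries (limma adjusted p = 0.0153, lost without KO 2 or WT 3). Myc had 1.82, 6.36 and 5.47 in KO libraries, and 0.953 in WT 1 and 0 in the other WT libraries. Only its KO libraries reached the filter value of 1, so Myc was tested because of its KO level. The Myc call (adjusted p = 0.0445) was lost in each of the 4 fits without 1 WT library, and Myc did not pass the filter without 1 KO library. edgeR called Ier2 alone, and so did DESeq2, which gave Myc no adjusted p. The summed level of the immediate early genes was 679 to 882 in KO and 716 to 922 in WT, with KO 3 the lowest library. Dusp1 and Fos are named after their values were seen. Dusp1 had 461, 536 and 200 in KO libraries and averaged 536 ± 65.9 in WT. Fos had 4.54, 21.8 and 109 in KO libraries and averaged 7.29 ± 8.78 in WT (limma adjusted p = 0.407). Unlike the sum, the mean log2 level of the immediate early genes was highest in KO 3 (4.32). It was 3.73 in KO 1, 3.74 in KO 2 and 3.35 to 3.96 in WT libraries. With that mean as a covariate, Hspb1 and Dnajb1 were called (limma adjusted p = 0.0087 and 0.0425), beside 0.915% of all tested genes called higher. Hsp90aa1, Hsp90ab1 and Hsph1 were not (adjusted p = 0.0525, 0.140 and 0.107). Their log2 fold changes in that fit were 0.42, 0.79 and 0.45, beside 0.57, 0.92 and 0.53 without the covariate. The part of granulosa RNA and of the digestion in the chaperone levels was not tested.

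Several of the genes have near-identical copies elsewhere in the genome, which carry rows of their own in the table. Other GENCODE M21 genes hold 42.8% of the 75-base stretches of Hsp90aa1, 46.4% of those of Hspb1, 33.0% of those of Hspa8, 55.8% of those of Hspa1b and 18.4% of those of Dnaja1. The share was 0.537% for Hsp90ab1 and 0 for Hsph1, Hspa4, Dnajb1 and Hsf1. Reads from these shared stretches cannot be assigned with certainty, and the sources used here do not name the counter or its setting. Gm12346, a processed pseudogene of Hsp90aa1, was listed at 8593, 11129 and 12738 normalised counts in KO libraries, against 7554, 7113, 6566 and 8078 in WT libraries. Its count was 48.4% to 50.2% of that of Hsp90aa1 in KO libraries and 48.4% to 51.9% in WT libraries. Gm12346 was called higher as well (log2 fold change 0.55, SE 0.13; limma adjusted p = 0.0150), as was the further copy Gm5844 (0.52, SE 0.14; adjusted p = 0.0259).

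For Hspa8 the pseudogene row Gm15459 held 48.9% to 53.8% of the Hspa8 count in KO libraries and 50.1% to 57.9% in WT libraries. For Dnaja1 the row Gm15542 held 75.1% to 77.8% of its count in KO and 74.6% to 89.5% in WT. Neither row was called (limma adjusted p = 0.268 and 0.752). The Hspb1 pseudogene Hsp25-ps1 was not called either (adjusted p = 0.470), with 70.9, 49.1 and 35.0 normalised counts in KO libraries, against 34.3, 62.8, 29.9 and 28.2 in WT libraries, which overlapped. Hspa1a, the neighbour and near twin of Hspa1b, had 27.3, 17.3 and 6.56 in KO libraries, against 4.77, 23.4, 11.2 and 8.67 in WT libraries.

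When each gene was summed with the rows that hold at least 5% of its stretches and do not overlap it, a choice made after seeing the data, the same 4 genes were called. Hsp90aa1 with its copies averaged 34691 ± 6344 in KO and 23284 ± 1701 in WT (limma adjusted p = 0.00787). Hspb1 with its copies averaged 254 ± 53.4 in KO and 144 ± 27.1 in WT, with a smaller log2 fold change of 0.81 (SE 0.20; adjusted p = 0.0168). The sum of Hspa1b and Hspa1a was 99.5 to 149.9 in KO libraries and 20.02 to 96.4 in WT libraries, and did not pass (adjusted p = 0.237). Dnaja1 also overlaps exons of Smu1 and Gm6297 over 608 and 249 bases. The library kit named in the labels, Nextera XT, does not mark strand, so reads there cannot be told apart.

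**Figure D3:**
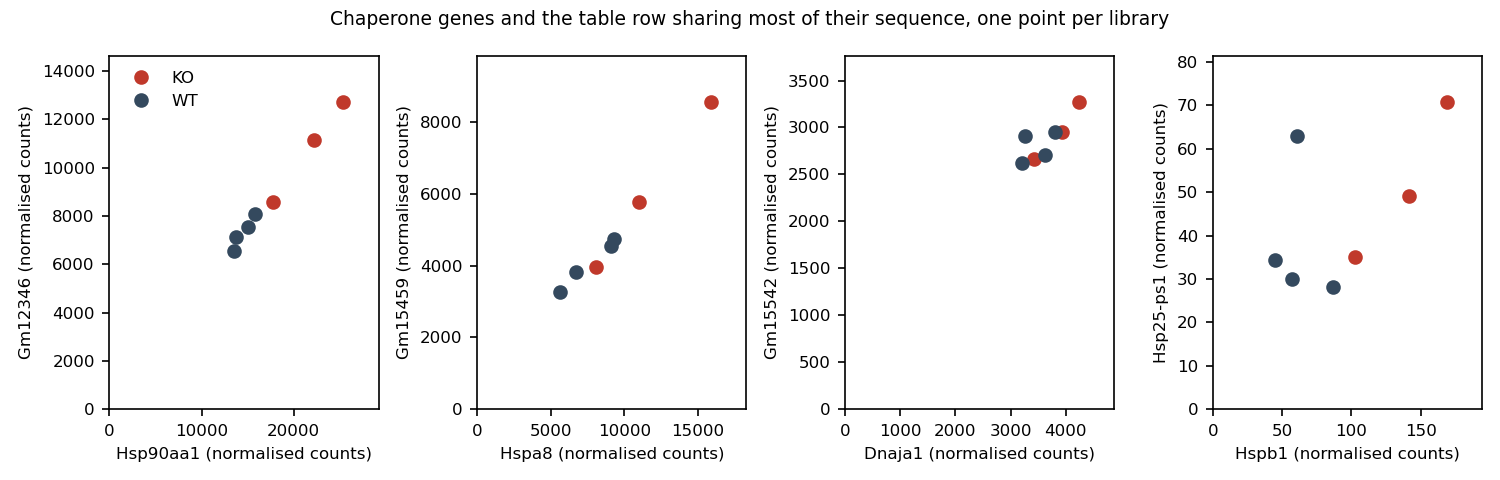
Normalised counts of Hsp90aa1, Hspa8, Dnaja1 and Hspb1 (horizontal axes) against those of the table row that shares most of their 75-base stretches (vertical axes), 1 point per library, KO in red and WT in dark blue. Gm12346 keeps 48.4% to 51.9% of the Hsp90aa1 count in every library, while Hsp25-ps1 overlaps between KO and WT.

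Per kilobase of annotated exon, the levels of the genes ran over a wide range and in nearly the same order in KO and WT. Hsp90aa1 was the highest, at 5543 ± 975 normalised counts per kilobase in KO and 3696 ± 273 in WT, above 99.5% of the 18576 tested genes with a length. Hspa8 followed with 2714 ± 919 in KO and 1782 ± 418 in WT. Dnajb1 had 977 ± 135 in KO and 784 ± 58.9 in WT. Hsp90ab1 had 1410 ± 450.3 in KO and 725 ± 93.5 in WT, so that it was above Dnajb1 in KO and below it in WT, with overlapping ranges. Dnaja1 (448 ± 47.6 in KO and 402 ± 33.3 in WT per kilobase) lay below them. Hsph1 (303 ± 39.1 in KO and 209 ± 22.4 in WT) and Hspa4 (229 ± 14.8 in KO and 176 ± 21.2 in WT) came next, and overlapped over all libraries. Hsf1 had 63.2 ± 18.9 per kilobase in KO and 73.7 ± 11.1 in WT, and Hspb1 134 ± 32.2 in KO and 60.4 ± 17.1 in WT. Hspa1b was the lowest, at 37.0 ± 5.87 in KO and 18.5 ± 10.8 in WT, still above 60.7% of tested genes. These genes are given in the order of their WT means. The range over all libraries overlapped between neighbours in that order except between Hspa8 and Dnajb1, Hsp90ab1 and Dnaja1, Dnaja1 and Hsph1, and Hspa4 and Hsf1.

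The genes whose centred log2 levels over the 7 libraries were most like those of Hsp90aa1, among 8126 well-detected genes, were Sycp2, of the synaptonemal complex, Nlrp4f, an oocyte gene of the NLRP family, and Lsm1, of mRNA decay. Their root mean square difference from Hsp90aa1 was 0.04, 0.05 and 0.06 on the log2 scale. Sycp2 averaged 788 ± 150.3 normalised counts in KO and 529 ± 29.4 in WT. For Hspa8, chosen after its values were seen, the closest gene was Zp2, of the zona pellucida (root mean square difference 0.08 on the log2 scale). Zp2 had 32187, 67948 and 48067 in KO libraries, against 35121, 24444, 22029 and 35266 in WT libraries.

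The wider chaperone network held calls in both directions. Of 67 tested genes in 8 lists of related factors, 3 were called higher and 4 lower, beside 3.09% and 3.63% of all tested genes. These counts are near that background, and the single lists had 0 to 2 calls each. Of the 7 tested HSF genes and regulators, 1 rose and 1 fell. At an unadjusted p under 0.05 limma had 3 higher and 1 lower, beside 21.8% of all tested genes in either direction. Hsf2, a heat shock factor that works with Hsf1 in germ cells, had 49.97, 68.2 and 81.0 normalised counts in KO libraries, against 36.2, 27.7, 27.1 and 35.7 in WT libraries. The groups did not overlap (log2 fold change 1.03, SE 0.27; limma adjusted p = 0.0260, lost without KO 2, KO 3, WT 2 or WT 3). Hsf5, a germ cell member of the family, was lower, with 91.8, 113 and 119 in KO libraries, against 162, 141, 173 and 197 in WT libraries (log2 fold change -0.63, SE 0.19; adjusted p = 0.0493, lost in each of the 7 fits without 1 library). Ep300, an acetyltransferase of HSF1, had 131 ± 14.7 in KO and 87.7 ± 12.5 in WT and did not pass (adjusted p = 0.0882).

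Of 20 tested HSP90 co-chaperones 1 rose and 1 fell. Chordc1, which binds HSP90 and is a known heat shock gene, had 425, 426 and 475 in KO libraries, against 263, 246, 226 and 325 in WT libraries (log2 fold change 0.75, SE 0.16; limma adjusted p = 0.00763). Its promoter window held 3 overlapping triples, with first bases from -4 to 7 of the RefSeq start, which lies inside the GENCODE gene. A triple occurred in 0.662% of all genes with a window. Chordc1 was the only gene of the related lists whose window was searched, so this match only describes its letters. Fkbp5, an HSP90-binding immunophilin that steroid receptors induce, fell to 130, 105 and 131 in KO libraries, against 221, 212, 250.5 and 232 in WT libraries (log2 fold change -0.91, SE 0.17; limma adjusted p = 0.00337). Both calls were kept in the 7 fits without 1 library. Nudc, a dynein-linked co-chaperone, had 3621 ± 561 in KO and 4627 ± 568 in WT and did not pass (adjusted p = 0.106). The median log2 fold change of this list was 0.04. At an unadjusted p under 0.05 limma had 3 of the 20 higher and 2 lower, beside 21.8% of all tested genes.

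Of 14 tested J-domain genes beside Dnaja1 and Dnajb1, 0 rose and 2 fell, and no other had an unadjusted limma p under 0.05. Dnajb4, a close relative of Dnajb1, had 1811, 1262 and 1848 in KO libraries, against 2258, 2094, 2507 and 2731 in WT libraries (log2 fold change -0.56, SE 0.14; limma adjusted p = 0.0239, lost without KO 2, WT 3 or WT 4). Dnajc9, a histone chaperone, had 795, 1006 and 875 in KO libraries, against 1441, 1089.6, 1166 and 1599 in WT libraries (log2 fold change -0.56, SE 0.15; adjusted p = 0.0276, lost without KO 1, KO 3, WT 1 or WT 4). Of the 8 subunits of TRiC, the chaperonin ring that folds actin and tubulin, 1 was called higher, and all 8 had a positive log2 fold change (median 0.33). This was Cct6a, with 275, 491 and 310 in KO libraries, against 215, 208, 162 and 236 in WT libraries (log2 fold change 0.77, SE 0.20; adjusted p = 0.0229, lost without KO 2, WT 2 or WT 3). Exons of Cct6a overlap those of Psph over 452 bases. Cct4 (1682 ± 128 in KO and 1299 ± 106 in WT) and Cct2 (1490 ± 304 in KO and 1120 ± 225 in WT) did not pass (adjusted p = 0.0803 and 0.138). At an unadjusted p under 0.05 limma had 5 of the 8 subunits, all higher, beside 21.8% of all tested genes in either direction. Without KO 1, limma called 3 subunits (Cct2, Cct6a and Cct8).

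The remaining lists had 0 calls in limma and in edgeR. Of 4 tested HSP70 and HSP110 relatives, 1 had an unadjusted p under 0.05, a share near the 21.8% of all tested genes. This was Hspa4l, another HSP110 gene with high levels in germ cells, with 456, 376 and 414 in KO libraries, against 316, 325, 279 and 300.03 in WT libraries. The groups did not overlap, limma gave an adjusted p of 0.0802, and DESeq2 called it higher (adjusted p = 0.0470). Of 5 tested nucleotide exchange factors of the BAG and HSPBP1 type 3 had an unadjusted p under 0.05. Bag2 averaged 4.85 ± 0.53 in KO and 0.715 ± 1.43 in WT. Bag5 averaged 261 ± 31.8 in KO and 191 ± 27.6 in WT, and Bag4 420.1 ± 67.7 in KO and 539 ± 37.3 in WT (adjusted p = 0.0541, 0.122 and 0.148). Bag2, with few reads, was called without WT 1 (adjusted p = 0.0311), with no filter on low values (0.0465) and with a pseudocount of 10 (0.0490). The other small heat shock protein genes (3 tested) had 0 at an unadjusted p under 0.05. Of the 6 prefoldin subunits 1 did, Vbp1 (1708 ± 241.6 in KO and 1310 ± 143 in WT; adjusted p = 0.0983), also a share near that of all genes. Vbp1 was called without KO 1. DESeq2 called 0 genes of these 3 lists, but gave Bag2 no adjusted p.

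**Figure D4:**
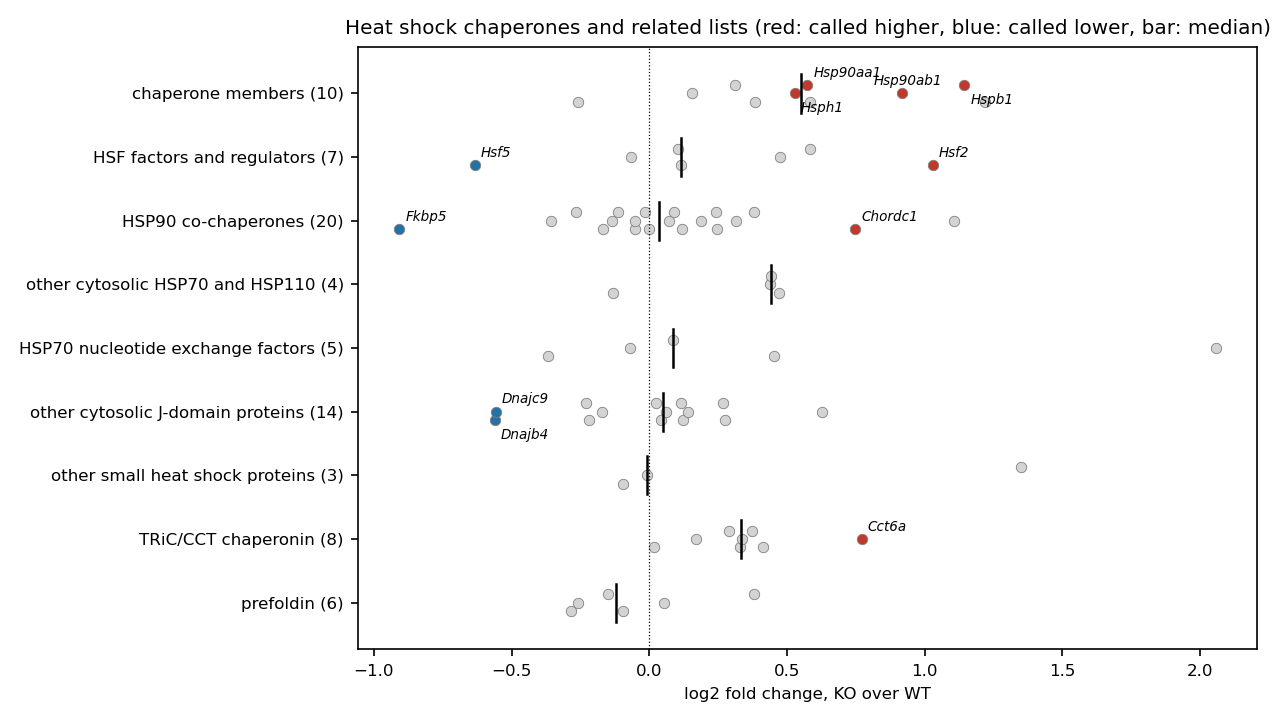
Log2 fold change of KO over WT (horizontal axis) of the 10 chaperone genes and of the tested genes of 8 related lists, with called genes in red (higher) or blue (lower) and the list median as a bar. The chaperone genes have a median of 0.55 and the HSP90 co-chaperones one of 0.04.

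**Figure D5:**
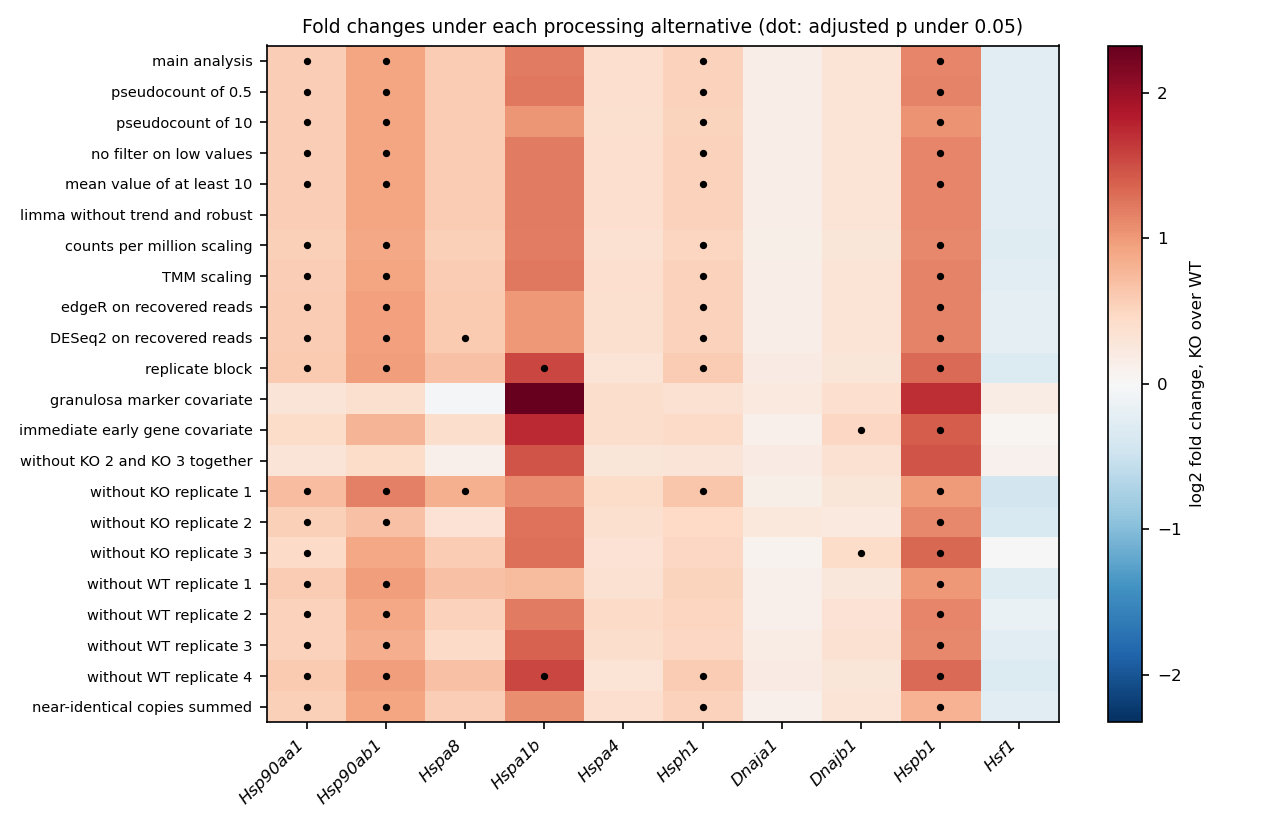
Log2 fold change of KO over WT (colour) of the 10 genes under the main analysis and each processing alternative, with a dot where the adjusted p was under 0.05. Hspb1 and Hsp90aa1 keep a dot in each fit without 1 library, no gene has one with the granulosa marker covariate, without KO 2 and KO 3, or in limma without trend and robust variance, and Hsf1 turns positive in 4 alternatives.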

How the data were processed

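The deposited table holds 1 value per gene and library. Its signal is gene counts that the authors divided by a size factor per library: divided by the smallest step, 100% of values of up to 1000 reads lay within 0.05 of a whole number. Per the submitters' processing notes, cutadapt, FastQC, STAR, DESeq and DESeq2 were used with GRCm38 (mm10). No counter is named there. Groups follow the sample titles. KO (n = 3) was compared with WT (n = 4) by limma 3.58.1 (R 4.3.3; trend and robust variance) on log2(value + 1) over the 19227 genes with at least 1 in at least 3 libraries, Benjamini-Hochberg adjusted over all of them. edgeR 4.0.16 and DESeq2 1.42.0 were run on the recovered whole reads as alternatives; edgeR called 1334 genes and limma 1291. Exon lengths, identifiers and shared 75-base stretches come from GENCODE M21, and promoters from RefSeq. Of the table's rows, 24768 matched GENCODE by name with start or chromosome. The table's end coordinates are 1 base past the GENCODE ends, which are printed. The members and lists were chosen with earlier results of these data known. Named beside the 10 genes are up to 3 genes per list by smallest p (given where the unadjusted p was under 0.05), the 2 most abundant markers of each cell type list and the 3 genes most like the gene with the smallest p. Lists absent in part were counted over the genes present. The fits were also run on simulated counts, drawn independently for each gene and library. Such counts lack differences that libraries share over many genes, so that run does not show how the fits behave on these data.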

Additional observations from a re-analysis of the deposited data

Results flagged for a closer look

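In the 38 genes whose 4 WT libraries were looked at for a library far from the others, 3 stood out. Chance flags about 1 in 20 such groups of spread values. Cct4 of the TRiC chaperonin was at 1140.3 normalised counts in WT 3, with the other WT libraries at 1339 to 1364. Bag2 was at 2.86 in WT 1 and at 0 in the other WT libraries. Myc was at 0.953 in WT 1 and at 0 in the other WT libraries. With 3 libraries at 0, any read in the other one is flagged, so that rate does not apply to Bag2 and Myc. Groups of 3, such as KO, were not looked at in this way.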

How the results depend on the processing

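Changing the pseudocount, the low-value filter, the scaling (CPM or TMM), the tool (edgeR or DESeq2) or summing near-identical copies gave 4 or 5 called chaperone genes. The 4 of the main analysis were among them. Leaving out 1 library gave 3 to 5 chaperone genes, 594 to 1767 genes in all and 3 to 8 genes of the related lists, in place of 4, 1291 and 7. The count over all genes was lower by over 1.5 times without KO 2, KO 3, WT 1, WT 2 or WT 3, and that of the lists without KO 2, KO 3, WT 2, WT 3 or WT 4. Limma without trend and robust variance called 0 chaperone genes, 106 genes in all and 0 list genes. The granulosa marker covariate gave 0, 1 and 0, the immediate early gene covariate 2, 501 and 3, and leaving out KO 2 and KO 3 together 0, 98 and 0. The causes of these changes were not tested. Deviations of same-numbered KO and WT libraries correlated at -0.22, 0.08 and 0.04, and those of differently numbered ones at -0.24 to 0.20. With so few libraries this cannot decide whether the replicate numbers pair them, and the labels do not say. A replicate block gave 5 chaperone genes (Hspa1b was the added one, limma adjusted p = 0.0372), 1022 genes in all and 4 list genes. No KO library is numbered 4, so WT 4 did not count in that fit. Its log2 fold changes were those of the fit without WT 4 (1.55 for Hspa1b in both). Direction turned for Hspa8 with the granulosa covariate (log2 fold change -0.033) and for Hsf1 with the granulosa covariate (0.17), with the immediate early covariate (0.040), without KO 2 and KO 3 (0.091) and without KO 3 (0.012; -0.43 to 0.012 over the fits without 1 library). Depth limits Bag2 and Myc, which rest on a few reads per library.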
